A study of Rattus norvegicus with 6 samples.

Results

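The genes of the lipid droplet, the store of triglyceride inside a cell, were followed on 6 rat arrays. The 10 members were taken from a list of names, Plin1, Plin2, Plin3, Plin4, Plin5, Cidec, Fitm1, Fitm2, G0s2 and Pnpla2, and each was measured by 1 probe set that names no other gene, out of 18166 genes measured in all. The arrays compared 3 samples of the Hlirag group with 3 of the diabetic group. By the study's methods both groups were male Sprague–Dawley rats that entered at 5 weeks of age, ate a diet with 45% of its energy from fat for 4 weeks and were made diabetic with 30 mg/kg of streptozotocin, a toxin of the β cell. Hlirag rats were then treated for 12 weeks with liraglutide at 0.4 mg/kg/day, a drug that activates the receptor of the gut hormone GLP-1, and diabetic rats were given saline in its place. By the same methods all rats were fasted for 10 hours before they were killed. The labels put both groups at 17 weeks of age and state that one was liraglutide-treated, without a dose. That age is lower than the schedule of the methods implies, and the sources do not resolve this. Nothing in the sources ties an array to a rat of its own among the 6 per group, so the p-values measure how far these samples scatter, and that scatter may be technical.

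Triglyceride made in the endoplasmic reticulum is budded into droplets with the help of the FITM proteins. Perilipins then coat the droplet and control the access of lipases, with Plin1 and Plin4 best known from fat cells, Plin2 and Plin3 from many tissues, and Plin5 from tissues that burn fatty acids, such as heart, brown fat and slow muscle. Pnpla2, also called ATGL, cuts the first fatty acid from triglyceride, Abhd5 activates it and G0s2 inhibits it, while Cidec joins droplets into larger ones in white fat.

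The tissue is labelled cardiac muscle, while the sample titles begin with arota and their descriptions speak of fat, and the markers did not all follow the first of these. The fat cell hormone Adipoq lay between 11.96 and 12.14 on the Hlirag arrays and between 12.15 and 12.31 on the diabetic arrays (log2 signal), and all 12 white fat markers lay above the background level of 5.19 on each array. That level is the 95th percentile of 1185 olfactory receptor genes. Of 11 measured heart muscle markers, 5 to 9 lay above that level on a Hlirag array and 5 to 10 on a diabetic array, with summed signals of 9.38 to 11.84 in Hlirag and 11.05 to 12.36 in diabetic (log2). Nppb, Ryr2, Pln and Casq2 lay above it on all 6 arrays, Myh6 and Tnnt2 on Hlirag replicate 1 and diabetic replicate 1 alone, and the atrial peptide Nppa on none. All 6 measured smooth muscle markers also lay above it on each array, with summed signals from 11.77 to 13.82 (log2). Pln and Ryr2 were lowest on Hlirag replicate 3 and diabetic replicate 2, as was the smooth muscle marker Myh11, while Casq2 and Nppb were not. Which cells the signals of Nppb, Ryr2, Pln and Casq2 came from was not tested. The skeletal muscle markers were highest on diabetic replicates 1 and 2, with a summed signal of 13.68 and 14.73 (log2 of the sum of 7 measured genes), against 8.66 to 9.46 on the Hlirag arrays and 8.52 on diabetic replicate 3. All 7 genes lay above background on those 2 arrays and 3 or 4 of them on the others, where Mybpc2 still read 7.41 and 8.73 on Hlirag replicates 2 and 3. Hlirag replicate 3 stood apart in its range of values, with an SD over genes of 1.52 against 1.84 to 1.98 on the other arrays, and with a median of the olfactory receptor genes of 4.51 against 3.13 to 3.50.

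The promoter windows of 4 members are shown because Plin2 and Fitm1 differed most between the groups and Plin1 and Cidec moved together over the arrays. Each runs from 250 bases before to 50 bases after an annotated start in RefSeq (GRCr8), is written 5′ to 3′, and carries in capitals every match, on either strand, to the motifs searched.
Plin2, chr5:106228969-106229268, minus strand: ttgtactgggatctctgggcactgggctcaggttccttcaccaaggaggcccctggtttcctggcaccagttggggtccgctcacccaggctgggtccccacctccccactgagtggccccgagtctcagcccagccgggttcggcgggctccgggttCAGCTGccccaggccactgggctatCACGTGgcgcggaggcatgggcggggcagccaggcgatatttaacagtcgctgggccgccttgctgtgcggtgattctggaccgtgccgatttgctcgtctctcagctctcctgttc
Fitm1, chr15:33034455-33034754, plus strand: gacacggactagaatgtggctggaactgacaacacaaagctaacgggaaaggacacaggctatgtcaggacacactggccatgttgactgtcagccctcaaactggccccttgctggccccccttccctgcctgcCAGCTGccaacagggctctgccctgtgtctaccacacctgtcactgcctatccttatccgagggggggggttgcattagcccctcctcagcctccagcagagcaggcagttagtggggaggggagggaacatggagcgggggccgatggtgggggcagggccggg
Plin1, chr1:143086099-143086398, minus strand: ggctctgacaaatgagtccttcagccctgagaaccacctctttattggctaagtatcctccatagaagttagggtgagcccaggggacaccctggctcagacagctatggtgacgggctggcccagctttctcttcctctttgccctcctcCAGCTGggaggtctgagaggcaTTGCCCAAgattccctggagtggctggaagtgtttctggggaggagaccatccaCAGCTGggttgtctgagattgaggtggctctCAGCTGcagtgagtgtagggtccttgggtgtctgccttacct
Cidec, chr4:148137066-148137365, minus strand: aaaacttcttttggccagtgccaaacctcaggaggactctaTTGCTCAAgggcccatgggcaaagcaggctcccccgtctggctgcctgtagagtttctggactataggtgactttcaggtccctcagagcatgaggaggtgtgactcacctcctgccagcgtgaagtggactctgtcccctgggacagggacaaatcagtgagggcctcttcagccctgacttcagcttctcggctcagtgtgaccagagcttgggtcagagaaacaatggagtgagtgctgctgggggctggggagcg
Positions count the first base of a match from the start, whose own base is 1. The capitals in Plin2, of whose 2 windows the one with a match is shown, are the E-boxes CAGCTG at position -92 and CACGTG at position -67 from the start. CAGCTG, an E-box that factors such as the MyoD family bind, was the only match in Fitm1, at position -115. Plin1 held CAGCTG at -99, -23 and 9, and windows of Plin4 and G0s2 held it too. Plin1 and Cidec were the only members with TTGNGCAA, an element of the C/EBP type, each on the strand opposite to the gene, at -77 in Plin1 and at -209 in Cidec. Of all 33469 windows 2.61% held that element, 15.1% held CAGCTG and 6.42% held CACGTG. The nuclear receptor half-site AGGTCA stood in the windows of Plin5 and G0s2 and in 16.2% of all windows. None of the 15 member windows held 2 copies of AGGTCA spaced by 1 base, the repeat bound by PPAR with RXR (0.0538% of all windows), or the MEF2 letters TAAAAATA (2.69%), or the TATA box TATAAA (14.2%). These are matches of letters in short windows and say nothing about binding.

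The comparison of Hlirag with diabetic asked which genes differ after liraglutide in diabetic rats. Of the 10 members, Plin2 and Fitm1 were lower in Hlirag and none was higher at the criterion of the study, which asks for p under 0.05 before adjustment and more than 1.5-fold, with the p taken here from limma. Over all 18166 genes 3.78% met it, 1.62% higher and 2.16% lower in Hlirag, or 294 genes higher and 393 lower. That split turned with the scaling, to 383 higher of 699 with quantile normalization and to 410 higher of 750 with median centring. The median log2 fold change, always Hlirag minus diabetic, was -0.05 over the members and 0.00 over all genes. Neither call survived correction. The adjusted p of limma was 0.780 for both, and 0 of the 18166 genes (0%) had an adjusted p under 0.05, while 752 had an unadjusted p under 0.05. By the methods' test of the study, run per gene without moderation, none of the members met the criterion or had an unadjusted p under 0.05, and 0 genes passed after adjustment with 690 under 0.05 before it. The groups did not overlap in 2 of 10 members, again Plin2 and Fitm1, and in 11.1% of all genes. With 3 arrays on each side the exact permutation test has 0.1 as its smallest two-sided p, so it can call none of them.

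**Figure D1:**
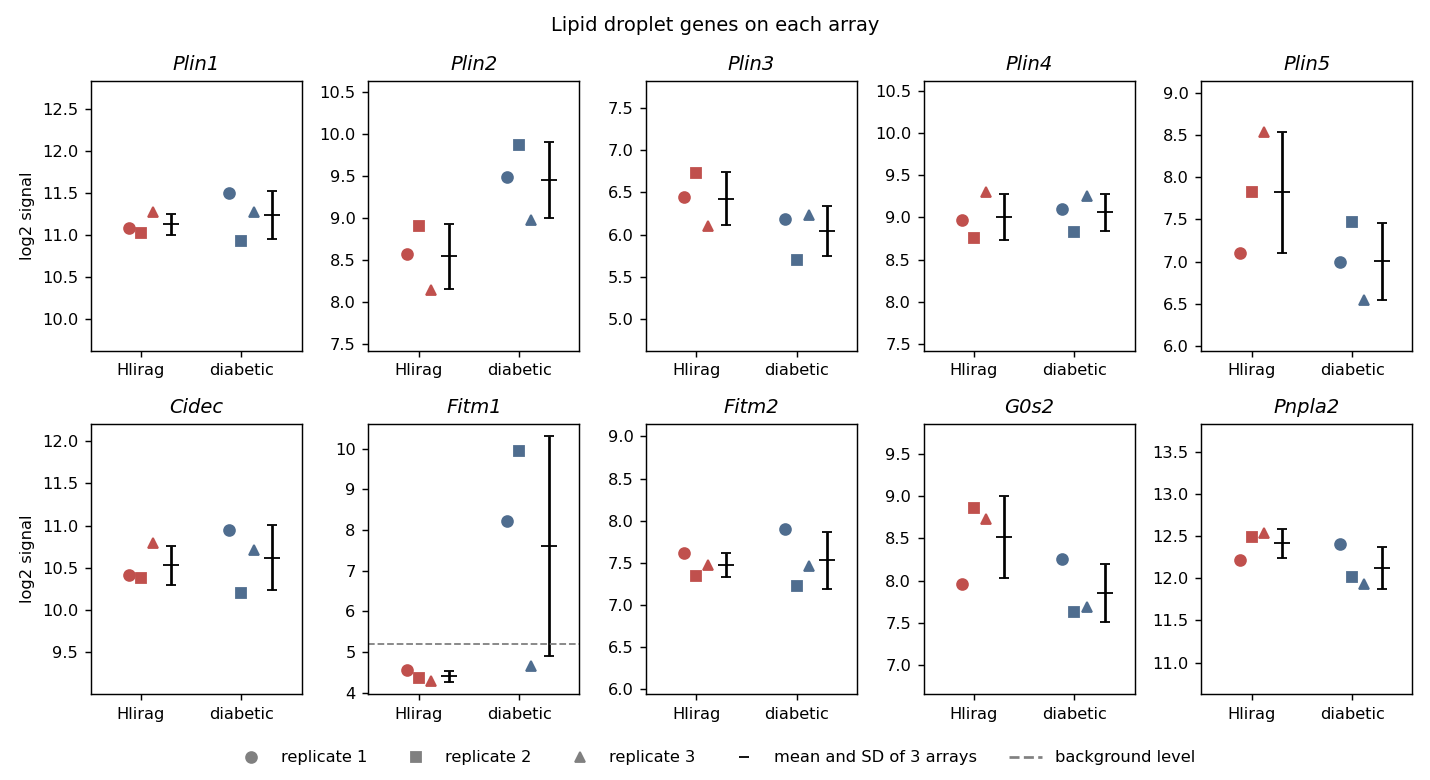
The log2 signal (y axis, scaled per gene) of each of the 10 members is plotted for Hlirag on the left and diabetic on the right, with 1 point per array, its shape giving the replicate number, and the mean with the SD of 3 arrays beside it. Plin2 separates the groups by little, Fitm1 is high only on diabetic replicates 1 and 2, and Plin1, Plin4, Cidec and Fitm2 overlap throughout.

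Plin2, the perilipin that coats droplets in most tissues and that is degraded when it has no lipid to bind, was lower in Hlirag. Its log2 signal, with arrays here and below in the order of their replicate numbers, was 8.57, 8.91 and 8.15 in Hlirag, against 9.49, 9.87 and 8.98 in diabetic. Every Hlirag array lay below every diabetic array, but Hlirag replicate 2 and diabetic replicate 3 almost touched. The means were 8.54 ± 0.38 in Hlirag and 9.45 ± 0.45 in diabetic (SD, n = 3 each), a log2 fold change of -0.90 (SE 0.32, 95% interval -1.64 to -0.17), or 1.87-fold lower in Hlirag, with an unadjusted p of 0.0222 and an adjusted p of 0.780 from limma. In RNA from whole tissue, fewer cells of a type and less RNA per cell cannot be told apart. The 2 arrays with the highest Plin2 were also the 2 with the high skeletal muscle markers. Without them, diabetic replicates 1 and 2, the log2 fold change was -0.43 and limma's unadjusted p was 0.381, with a single diabetic array left that is assumed to vary like the Hlirag arrays. Plin2 also missed the criterion when Hlirag replicate 3 was left out (-0.71), when diabetic replicate 1 was (-0.88) and when diabetic replicate 2 was (-0.69). The part of the skeletal muscle markers in this difference was not tested.

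Plin5, the perilipin that ties droplets to mitochondria, read higher in the Hlirag mean, but the groups overlapped and it did not meet the criterion. Its log2 signal was 7.10, 7.83 and 8.54 in Hlirag, against 6.99, 7.47 and 6.55 in diabetic. Hlirag replicate 1 lay below diabetic replicate 2. The means were 7.82 ± 0.72 in Hlirag and 7.0 ± 0.46 in diabetic (SD, n = 3 each), and the log2 fold change of 0.82 (SE 0.41) had a 95% interval of -0.13 to 1.77 and an unadjusted p of 0.0811 in limma. It was 0.46 without Hlirag replicate 3, the array with the compressed range, and 1.18 without Hlirag replicate 1, where it met the criterion. Some brown fat markers, such as Ucp1 and Cox8b, were also highest on Hlirag replicates 2 and 3. Others were not, since Dio2 and Ebf2 were highest on diabetic replicate 1 and Zic1 on diabetic replicate 3. The uncoupling protein Ucp1 read 10.75, 12.75 and 12.03 in Hlirag, against 10.92, 7.35 and 7.05 in diabetic, and the summed signal of 10 brown fat markers ranged from 11.50 to 13.20 in Hlirag and from 9.57 to 11.70 in diabetic, with 5 to 8 of them above background on an array. Of these 10 markers 4 were higher in Hlirag at the criterion and none was lower. The order differed in part, since Ucp1 was high on diabetic replicate 1 while Plin5 was not. The part of brown fat cells in the Plin5 values was not tested.

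Plin1, the perilipin that guards the large droplet of fat cells, differed by less than the spread between arrays. It read 11.09, 11.03 and 11.27 in Hlirag and 11.50, 10.93 and 11.28 in diabetic (log2 signal), and the whole range over the 6 arrays was 0.57. Its log2 fold change was -0.11 with a 95% interval of -0.66 to 0.44, so a change of 1.5-fold upward lies outside that interval and one of 1.5-fold downward does not. Plin4, a long perilipin of small droplets in fat and muscle cells, ran from 8.76 to 9.30 in Hlirag and from 8.83 to 9.26 in diabetic, with a log2 fold change of -0.05 (95% interval -0.62 to 0.52). Its sign turned with quantile normalization (0.12) and with median centring (0.01). Plin3, which moves onto new droplets from the cytosol, averaged 6.43 ± 0.32 in Hlirag and 6.04 ± 0.30 in diabetic (SD, n = 3 each). Its groups overlapped, with a log2 fold change of 0.39 (95% interval -0.23 to 1.01). Plin4 and Plin5 are neighbours on chromosome 9 in the RefSeq annotation, where Plin3 also lies, and over the arrays Plin5 spanned 1.99 log2 units against 0.54 for Plin4.

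Cidec, which fuses droplets in white fat cells, followed Plin1 from array to array. It read 10.41, 10.38 and 10.79 in Hlirag and 10.95, 10.20 and 10.71 in diabetic (log2 signal), with a log2 fold change of -0.09 (95% interval -0.72 to 0.54). Both genes were highest on diabetic replicate 1 and lowest on diabetic replicate 2. This was not particular to them, since Fitm2 was too, at 7.90 and 7.23, and its window held no match to TTGNGCAA. How many other genes ran as close to Plin1 as Cidec did was not counted. Cidec minus Plin1 on the same array, a difference of 2 log2 signals that centring of arrays leaves as it is but quantile normalization does not, was -0.68, -0.65 and -0.48 in Hlirag and -0.55, -0.74 and -0.57 in diabetic. It thus stayed within 0.26 log2 units, while Cidec alone spanned 0.75. Its difference between the groups was 0.02 (exact p = 0.9, two-sided permutation test, adjusted p = 0.9 over 5 such pairs). The pairs were chosen after their values were seen, so their p-values are descriptive only. For Plin2 minus Plin1 the values were -2.51, -2.12 and -3.12 in Hlirag and -2.01, -1.06 and -2.31 in diabetic, and here the groups overlapped. The Plin2 difference relative to Plin1 was -0.79 (exact p = 0.2, adjusted p = 0.333). Plin5 minus Plin1 averaged -3.31 ± 0.64 in Hlirag and -4.24 ± 0.68 in diabetic (SD, n = 3 each, exact p = 0.2, adjusted p = 0.333).

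**Figure D2:**
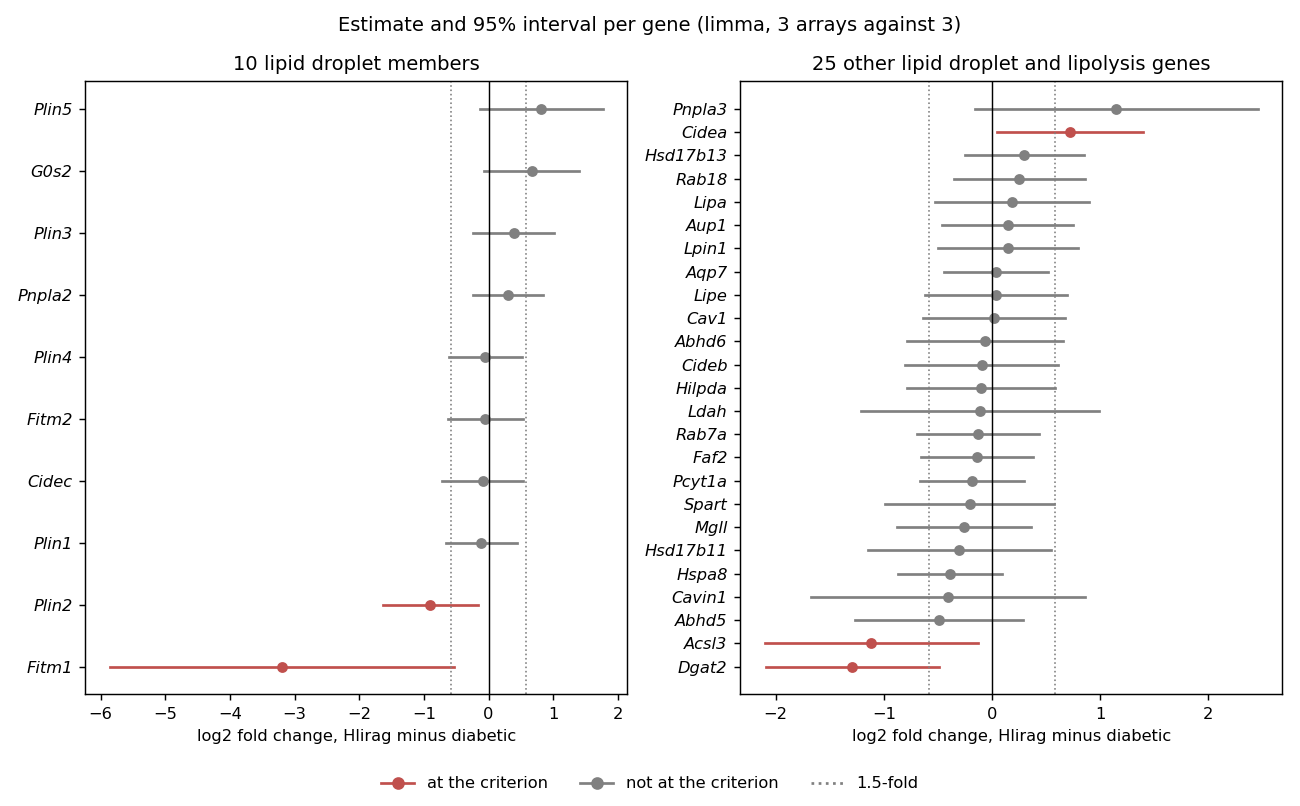
Points are log2 fold changes, Hlirag minus diabetic, and lines their 95% intervals from limma, for the 10 members on the left and for 25 other lipid droplet and lipolysis genes on the right, with dotted lines at 1.5-fold. Among the members Plin2 and Fitm1 are coloured as meeting the criterion, and among the other genes Dgat2, Acsl3 and Cidea are.

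Fitm1, the FITM protein of skeletal and heart muscle, had the largest range of the members, 5.64 log2 units. Its log2 signal was 4.55, 4.36 and 4.30 in Hlirag, against 8.21, 9.94 and 4.66 in diabetic. Only diabetic replicates 1 and 2 lay above the background level of 5.19, and diabetic replicate 3 lay close to the Hlirag arrays. The means were 4.41 ± 0.13 in Hlirag and 7.60 ± 2.69 in diabetic (SD, n = 3 each), a fitted log2 fold change of -3.20 (SE 1.14, 95% interval -5.86 to -0.54) with an unadjusted p of 0.0246 and an adjusted p of 0.780 from limma. All 3 Hlirag arrays lay below background, so the Hlirag mean is only a bound. The diabetic mean as measured was 5.31-fold above the background level. This is no smallest fold for the group, as diabetic replicate 3, at 4.66, also lay below that level. With values below that level raised to it, the call ended (log2 fold change -2.59, unadjusted p of 0.116). It also ended when Hlirag replicate 2 (-3.18), Hlirag replicate 3 (-3.14), diabetic replicate 1 (-2.89) or diabetic replicate 2 (-2.03) was left out, and when both of these diabetic arrays were (-0.25, unadjusted p of 0.548). Without diabetic replicate 3 the log2 fold change was -4.67, and limma gave an adjusted p of 0.0255. The diabetic arrays then left, replicates 1 and 2, were those with the high skeletal muscle markers. The median log2 fold change of these markers was -5.89 in that setting.

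Most of the skeletal muscle markers were high on the same arrays as Fitm1. Acta1, the actin of skeletal muscle, read 6.93, 7.09 and 6.75 in Hlirag and 11.76, 12.99 and 6.89 in diabetic, and the muscle creatine kinase Ckm read 6.68, 5.69 and 6.17 in Hlirag and 11.71, 12.71 and 6.49 in diabetic. Of 7 measured skeletal muscle markers 6 were lower in Hlirag at the criterion and none was higher, with a median log2 fold change of -4.11, and Mybpc2 (-1.31) did not meet it. The groups overlapped in each of the 7, and without diabetic replicates 1 and 2 the median was -0.13. Compared over the 6 arrays after centring each gene on its mean, the genes closest to Fitm1 were Tnni2, the fast skeletal troponin I, Stmn2, a regulator of microtubules in neurons, and Art1, an ADP-ribosyltransferase of muscle, at root mean square distances of 0.24, 0.27 and 0.31 log2 units. In all 27 genes lay within 0.5. Of the 11 heart muscle markers 0 met the criterion. Myl3, a myosin light chain of heart and slow muscle, was high on the same arrays as Fitm1, with 4.05, 4.37 and 4.81 in Hlirag against 7.52, 10.20 and 3.86 in diabetic. Myh6, the heart's α myosin, was 7.88 on Hlirag replicate 1, where Fitm1 was below background, and 3.76 on diabetic replicate 2, where Fitm1 was highest. How far the amount of skeletal muscle in the samples accounts for Fitm1 was not tested. Fitm2, the form found in most tissues and in fat, lay between 7.34 and 7.62 in Hlirag and between 7.23 and 7.90 in diabetic, with a log2 fold change of -0.05 (95% interval -0.63 to 0.53) that turned positive with quantile normalization (0.21) and median centring (0.01).

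**Figure D3:**
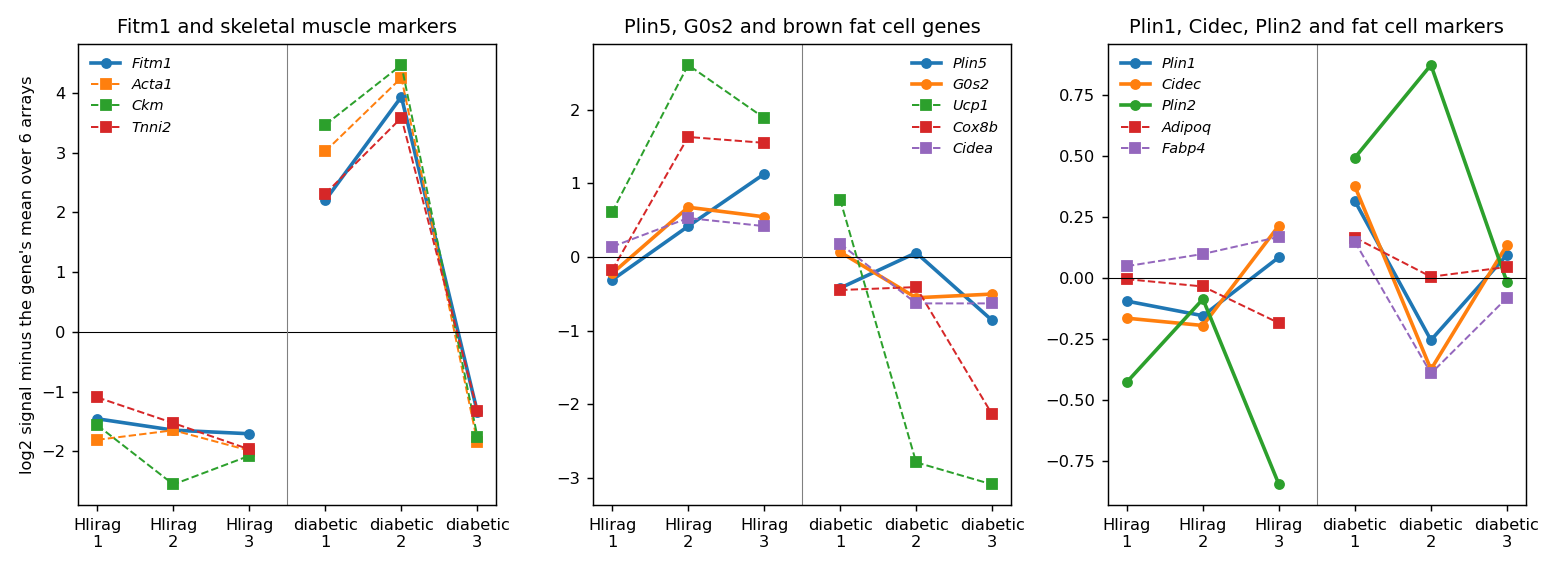
Each gene's log2 signal minus its own mean over the 6 arrays (y axis) is plotted for the 3 Hlirag and the 3 diabetic arrays, with members as solid lines and markers as dashed lines that only join points of 1 gene. Fitm1 runs with the skeletal muscle markers drawn, and Plin1 and Cidec run together. G0s2 and Ucp1 order the arrays alike except among the lowest, diabetic replicates 2 and 3, and Plin5 follows them only in part.

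The lipase Pnpla2 and its inhibitor G0s2 both read higher in the Hlirag mean without meeting the criterion. The log2 signal of G0s2 was 7.96, 8.86 and 8.73 in Hlirag, against 8.25, 7.63 and 7.68 in diabetic. Hlirag replicates 2 and 3 exceeded every diabetic array, whereas Hlirag replicate 1 lay below diabetic replicate 1. Its means were 8.52 ± 0.49 in Hlirag and 7.85 ± 0.35 in diabetic (SD, n = 3 each), with a log2 fold change of 0.67 (SE 0.32, 95% interval -0.07 to 1.41) and an unadjusted p of 0.0707 in limma. G0s2 met the criterion without Hlirag replicate 1 (0.94) and without diabetic replicate 1 (0.87). Pnpla2 read 12.22, 12.49 and 12.54 in Hlirag and 12.41, 12.02 and 11.93 in diabetic, a log2 fold change of 0.30 (95% interval -0.25 to 0.84). Like Ucp1 and Cidea, both genes were highest on Hlirag replicates 2 and 3 and lowest on diabetic replicates 2 and 3. All of these read higher on diabetic replicate 1 than on Hlirag replicate 1. Other brown fat markers, such as Dio2 and Ebf2, did not share this pattern. The part of brown fat cells in the G0s2 and Pnpla2 values was not tested. G0s2 minus Pnpla2 on the same array averaged -3.90 ± 0.32 in Hlirag and -4.27 ± 0.12 in diabetic (SD, n = 3 each), and the difference of 0.37 had an exact p of 0.3 (two-sided permutation test, adjusted p = 0.375 over the 5 pairs). With quantile normalization that difference was 0.57.

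Abhd5, the activator of Pnpla2, read lower in the Hlirag mean. It was 9.20, 9.50 and 8.53 in Hlirag and 9.97, 9.14 and 9.59 in diabetic, and its log2 fold change of -0.49 (SE 0.33) did not meet the criterion. Abhd5 minus Pnpla2 was -3.02, -2.99 and -4.01 in Hlirag and -2.44, -2.87 and -2.35 in diabetic. Here the groups did not overlap, with a difference of -0.78 and an exact p of 0.1, the smallest this test allows (adjusted p = 0.333 over the 5 pairs). Hlirag replicate 2 and diabetic replicate 2 almost touched, at -2.99 and -2.87. The difference was -0.45 without Hlirag replicate 3 and -0.59 with quantile normalization. This pair too was chosen after its values were seen, so these p-values are descriptive only.

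Of 25 other measured genes of the droplet and of lipolysis, 2 were lower and 1 was higher in Hlirag at the criterion, with a median log2 fold change of -0.10. Dgat2, an enzyme that makes triglyceride at the droplet, was lower in Hlirag, with 9.46, 9.01 and 9.20 in Hlirag, against 9.79, 10.82 and 10.94 in diabetic. Its log2 fold change was -1.29 (SE 0.34, adjusted p of 0.780 in limma), and it met the criterion in all 16 other settings. Acsl3, an acyl-CoA synthetase of nascent droplets, was lower too, at 7.46, 7.27 and 6.02 in Hlirag and 8.14, 8.42 and 7.55 in diabetic (log2 fold change -1.12, SE 0.42, adjusted p of 0.780). It missed the criterion when the same arrays were left out as for Plin2, with -0.67 when Hlirag replicate 3 was. Cidea, the relative of Cidec in brown fat, was higher in Hlirag, at 12.51, 12.90 and 12.79 against 12.55, 11.74 and 11.74 in diabetic (log2 fold change 0.72, SE 0.29, adjusted p of 0.780), although diabetic replicate 1 lay among the Hlirag arrays. Leaving out any 1 of Hlirag replicates 2 and 3 or diabetic replicates 2 and 3 ended this call, with values from 0.58 to 0.69, as did quantile normalization (0.70) and the intensity trend (unadjusted p of 0.061 in limma), and it met the criterion in 7 of the 16 other settings. The hormone-sensitive lipase Lipe had a log2 fold change of 0.04, the monoacylglycerol lipase Mgll -0.26 and Hilpda, an inhibitor of Pnpla2 induced by low oxygen, -0.10, with overlapping groups in each.

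Beside Plin1 and Cidec, the white fat markers had overlapping summed signals in both groups. Of 12 measured, 1 was higher at the criterion, the β3-adrenergic receptor Adrb3 with a log2 fold change of 0.60, and none was lower, with a median of 0.11. The groups did not overlap in 3 of the 12, against 11.1% of all genes. Of these, Adipoq was lower in Hlirag (-0.15), and Adrb3 and Thrsp (0.56) were higher. The summed signal of the 12 markers ranged from 14.83 to 14.91 in Hlirag and from 14.71 to 15.12 in diabetic (log2). Fabp4, the fatty acid binding protein of fat cells, lay between 12.42 and 12.54 in Hlirag and between 11.98 and 12.52 in diabetic. Its lowest array was diabetic replicate 2, on which Plin1 and Cidec were lowest too. The other white fat markers did not all share this, since Adipoq was lowest on Hlirag replicate 3 and Lep on Hlirag replicate 2. Of 6 smooth muscle markers 0 met the criterion, and Myh11, the smooth muscle myosin, lay between 9.86 and 11.91 in Hlirag and between 9.75 and 11.82 in diabetic.

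**Figure D4:**
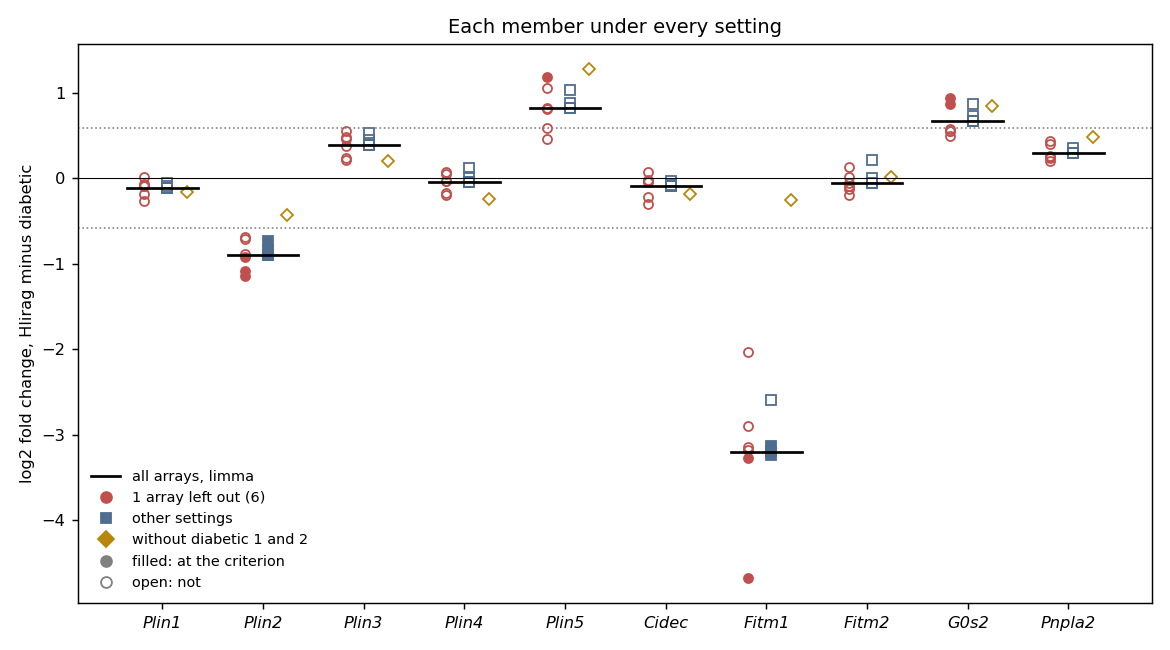
The log2 fold change of each member, Hlirag minus diabetic (y axis), is shown with all arrays (black line), with each of the 6 arrays left out (circles), under 9 other settings (squares) and without diabetic replicates 1 and 2 (diamonds), filled where the criterion was met. Plin2 and Fitm1 lie below 0 throughout but are open in several settings, and Plin5 and G0s2 lie above 0 throughout and are filled in 1 and 2 of them.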

How the data were processed

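The authors scanned Affymetrix Rat Gene ST arrays and analysed the signals with Expression Console. The deposited values lie on a log2 scale, read from their range, and their normalization and centring are not given in the sources used here. Column medians over 36685 probe sets ran from 4.94 to 5.39. The array annotation gave 18511 probe sets 1 symbol, 575 several and 17599 none, and the brightest of a gene's single-symbol probe sets stood for each of 18166 genes. Gene numbers of 18059 matched the RefSeq table (GRCr8), used for names, neighbours and promoters.

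limma 3.58.1 in R 4.3.3 compared the groups across all genes (lmFit and eBayes, no covariate), with Benjamini-Hochberg adjustment over all of them, and the fit was tested on simulated data. The methods' test was a one-way ANOVA. Arrays carry no read depth, and their number limits the precision. Marker lists are described by counts and medians. The members and lists were chosen with earlier results of these data known. Named genes are the members, listed droplet genes at the criterion with 5 fixed ones, defining markers of cell types, and the 3 genes nearest to a member whose range exceeded 2 log2 units. The motifs, the 5 pairs and the other genes named were chosen after their values were seen. Alternatives were the methods' test, a filter on dim genes, raising low values to background, quantile normalization, arrays centred on their medians, an intensity trend, the mean of probe sets, all probe sets, a replicate block, each array left out, and diabetic replicates 1 and 2 left out together.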

Additional observations from a re-analysis of the deposited data

How the results depend on the processing

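Plin2, Plin3, Plin5, Fitm1, G0s2 and Pnpla2 kept their direction in all 16 alternatives, and Plin1, Plin4, Cidec and Fitm2, all near 0, did not. Several alternatives could not turn it, as they leave a member's log2 fold change as it was. These were the methods' test, the filter on dim genes, the intensity trend, the mean of probe sets, all probe sets and the replicate block. Raising low values changed it for Fitm1 alone. The number of members at the criterion was 2 with all arrays, 0 by the methods' test, 1 with low values raised to background, 0 without diabetic replicates 1 and 2 together, and 0 to 4 with each array left out. It was 4 without Hlirag replicate 1, where Plin5 and G0s2 joined. Over all genes 687 met the criterion, against 236 by the methods' test, 214 with low values raised, 1242 of all probe sets, 286 without diabetic replicates 1 and 2, and 226 to 2018 with each array left out, lowest when this was Hlirag replicate 2 and highest when it was Hlirag replicate 1. It was 350, 343 and 370 without Hlirag replicate 3, diabetic replicate 1 and diabetic replicate 2, and 1062 without diabetic replicate 3. Of the 687, 294 were higher in Hlirag, against 383 of 699 with quantile normalization and 410 of 750 with median centring. Of the other droplet genes 3 met it, against 1 by the methods' test or with low values raised, and 1 to 4 with each array left out.

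For Plin2 the methods' test gave -0.90 with an unadjusted p of 0.0573, and the log2 fold change was -0.43 without diabetic replicates 1 and 2 and -1.14 to -0.69 with each array left out. For Fitm1 the methods' test gave -3.20 (unadjusted p of 0.109), and the values were -2.59 with low values raised, -0.25 without diabetic replicates 1 and 2 and -4.67 to -2.03 with each array left out. With each array left out, Plin1 ran from -0.27 to 0.02, Plin4 from -0.20 to 0.076, Plin5 from 0.46 to 1.18, Cidec from -0.30 to 0.075, Fitm2 from -0.20 to 0.13, G0s2 from 0.50 to 0.94, Hilpda from -0.34 to 0.17 and Lipe from -0.21 to 0.22. Plin4 was 0.12 and 0.012, and Fitm2 0.21 and 0.007, with quantile normalization and median centring, and Fitm2 was 0.02 without diabetic replicates 1 and 2. The causes were not tested.

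Whether the replicate numbers shared by the groups pair the arrays could not be settled. Deviations from the group means correlated over genes at 0.32, 0.04 and 0.15 for numbers 1 to 3, and at -0.32 to 0.16 for unlike numbers. With a replicate block 1117 genes met the criterion, again Plin2 (p of 0.00549 in limma) and Fitm1 (0.0155) of the members, and Cidea missed it. Each array correlated best with its own number except Hlirag replicate 2, which did so with diabetic replicate 1 (0.16).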
